A study of Mus musculus with 9 samples.

Results

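Dystrophin-mutant mouse embryonic fibroblasts (MEFs) given MyoD together with the small molecules F/R/C were compared with untreated MEFs of the same genotype, gene by gene across all functions of the cell. The members of the comparison were the 3 libraries titled MyoD F/R/C 1 to 3 and the 3 titled Dmdmdx MEF 1 to 3, chosen by these titles, which are 6 of the 9 libraries of the series. All 9 libraries carried the Dmdmdx genotype, which bears a mutation in the dystrophin gene and is used as a mouse model of Duchenne muscular dystrophy, so no library came from cells with intact dystrophin. The treatment labels are none for MEF, MyoD alone for the remaining 3 libraries, and MyoD with F/R/C. The source is labelled only as embryonal tissue, the letters F, R and C are not spelled out, and no dose, time, vector, promoter, embryonic stage or sorting step is given. The design text states the purpose as turning fibroblasts into myogenic progenitors. Nothing in the labels ties the 3 libraries of a group to different cultures or embryos, and p-values here reflect only how far these libraries spread, which may be technical. The libraries with MyoD alone entered the same fit. The difference of F/R/C from MyoD alone was tested for every gene but is quoted for a few only. Where it is not quoted, no result on it is implied.

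MyoD, the product of Myod1, is a basic helix-loop-helix transcription factor that binds short DNA motifs called E-boxes and can open muscle genes in cells of other lineages. In normal myogenesis it acts with Myog, Mef2 and Tead factors, the cell leaves the cell cycle, and the myoblast fuses with others into a fibre. A muscle fibre differs from a fibroblast in more than its contractile proteins: it burns glycogen and fuel in muscle-specific enzymes, stores calcium in a specialised reticulum, carries its own ion channels, and does not secrete a collagen-rich matrix.

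Depth was even across the 9 libraries, at 21112071 to 24291056 estimated counts each. The unit of level is CPM (counts scaled by TMM library size), and a count of 0 allows up to 3 counts, which is 0.121 to 0.144 CPM in the 6 libraries compared. This floor covers counting error only. Genes with at least 10 counts numbered 14038 to 14570 per MEF library and 14926 to 15402 per library with F/R/C. Myod1 lay at 2.6, 0.403 and 6.0 CPM in MEF replicates 1 to 3 and at 269, 281 and 330 CPM with F/R/C, the order that the labels call for, although the counts do not separate an introduced copy from the endogenous gene.

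Libraries within each group were not alike. MEF replicate 3 held low levels of the genes that were high with F/R/C. Of 145 genes with at most 3 counts in MEF replicates 1 and 2 and at least 10 CPM on average with F/R/C, 135 had over 3 counts in MEF replicate 3. Their level there was a median of 1.53% of the F/R/C mean, with quartiles of 1.26% and 2.1%, and the 123 of them outside the sarcomere list had a median of 1.64%. F/R/C replicate 3 had higher counts of short transcripts than F/R/C replicates 1 and 2, by a median log2 difference of 0.48 for the genes of shortest effective length (median 704 bases) against -0.48 for the longest (median 5229 bases). Whether these transcripts in MEF replicate 3 were made by its cells or carried over from another library or culture was not tested, nor was the part of either library in the results. Levels are therefore given by library where they matter, and counts and folds that moved by over 1.5 times are also given without these libraries.

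With edgeR's quasi-likelihood test and an adjusted p under 0.05 by Benjamini and Hochberg, 3067 of 15714 genes tested rose with F/R/C (19.5%) and 2849 fell (18.1%). Changes of at least 4-fold were seen for 1505 genes upward and 991 downward, and changes of at least 64-fold for 433 upward and 40 downward. Of these, 164 and 18 had at most 3 counts in every library of the lower group, where the fitted fold depends on the prior count. Genes called higher took 12.6% to 13.3% of all counts in MEF, against 43.6%, 43.8% and 50.8% with F/R/C. Genes called lower took 34.1% to 39.3% of counts in MEF and 8.5% to 11.5% with F/R/C. In these bulk libraries, fewer cells of a type and less RNA per cell cannot be told apart. Without the third MEF and the third F/R/C library, an alternative chosen after the data were seen, 2073 genes were higher and 1877 lower.

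**Figure D1:**
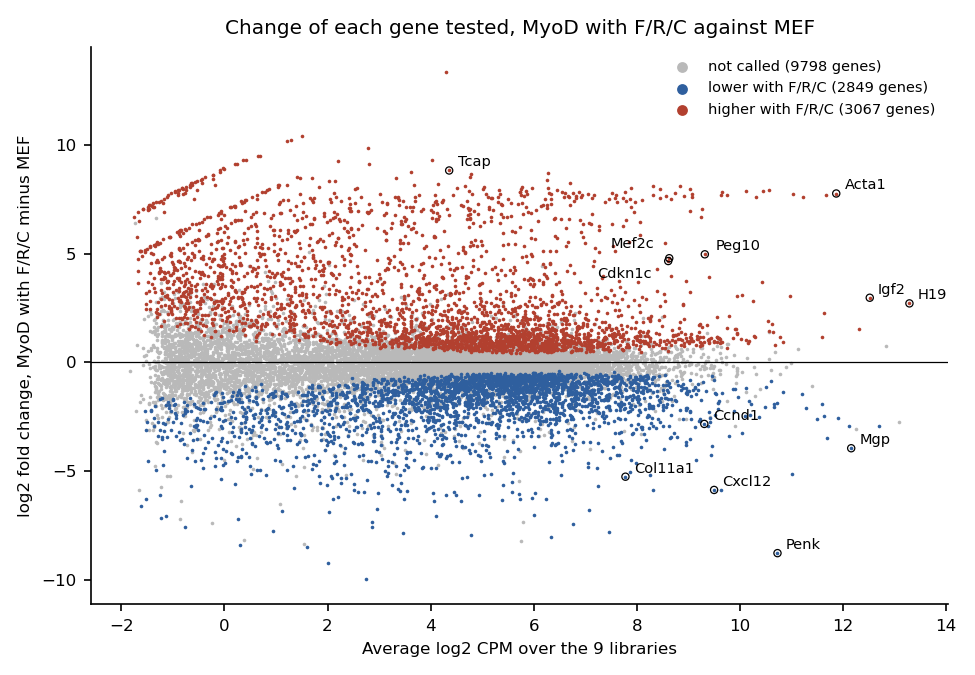
Each point is a gene tested, with its average level over the 9 libraries (log2 CPM, x axis) and its log2 fold change between MyoD with F/R/C and MEF (y axis). Genes called higher (3067) are red, genes called lower (2849) blue and the others grey; 12 genes are circled and named, from Penk at -8.78 to Tcap at 8.84.

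The most abundant genes differed too. By TPM, which corrects for transcript length, the most abundant gene in MEF was Mgp, the matrix Gla protein that restrains calcification, at 23679 ± 5524 TPM (SD, n = 3). It was at 1162 ± 438 TPM with F/R/C. In F/R/C libraries the most abundant gene was the imprinted long non-coding RNA H19 at 15927 ± 2233 TPM, ahead of the skeletal actin gene Acta1 at 14101 ± 2380 TPM. Igf2, a fetal growth factor, was among the first 10 at 7610 ± 193 TPM, against 1149 ± 606 TPM in MEF. The thymosin gene Tmsb10, whose product binds actin monomers, rose from 1479 ± 583 to 10223 ± 2698 TPM. By gene type, long non-coding RNAs were called higher in 234 of 1158 cases (20.2%) and lower in 134 (11.6%), and protein-coding genes higher in 2792 of 14243 (19.6%) and lower in 2685 (18.9%).

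Some genes went from at or under 3 counts in every library of one group to a clear level in the other. There were 238 such genes among those called higher, taking at least 1 CPM on average with F/R/C, and 35 among those called lower. At 10 CPM or more the class held 9 genes that rose and 2 that fell, and the genes described from it were chosen after their values were seen. The count of 9 depends on MEF replicate 3. With the limit of 3 counts set for MEF replicates 1 and 2 only, 145 genes, called or not, reached 10 CPM with F/R/C. Of these, 135 had over 3 counts in MEF replicate 3. One of the 9, Dhrs7c, encodes a reductase of the muscle reticulum and had 0, 0 and 1 counts in MEF against 313, 439 and 514 with F/R/C. Fsd2, a fibronectin type III and SPRY domain gene, had 2, 0 and 2 counts against 334, 181 and 229. The same class held Kcnj11, the pore of the ATP-sensitive potassium channel, with 0, 0 and 2 counts in MEF and 225, 218 and 325 with F/R/C. The reverse pattern was shown by Gprin3, with 153, 513 and 395 counts in MEF and 2, 3 and 1 with F/R/C.

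The genes of 64 functional lists were then counted. A list is described by how many of its tested members rose and fell, and by its median log2 fold change, beside the shares of all genes given above and a median of -0.04 over all genes tested. The lists hold genes whose functions were known from textbooks and were chosen with earlier results of these data in view, so their direction is not independent evidence. Lists of energy metabolism, ribosomes, calcium handling, ion channels, muscle regulators and imprinted genes had shares of higher members above the background, and lists of matrix, secretion, lysosome, cholesterol, cytokine and interferon genes had shares of lower members above it.

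**Figure D2:**
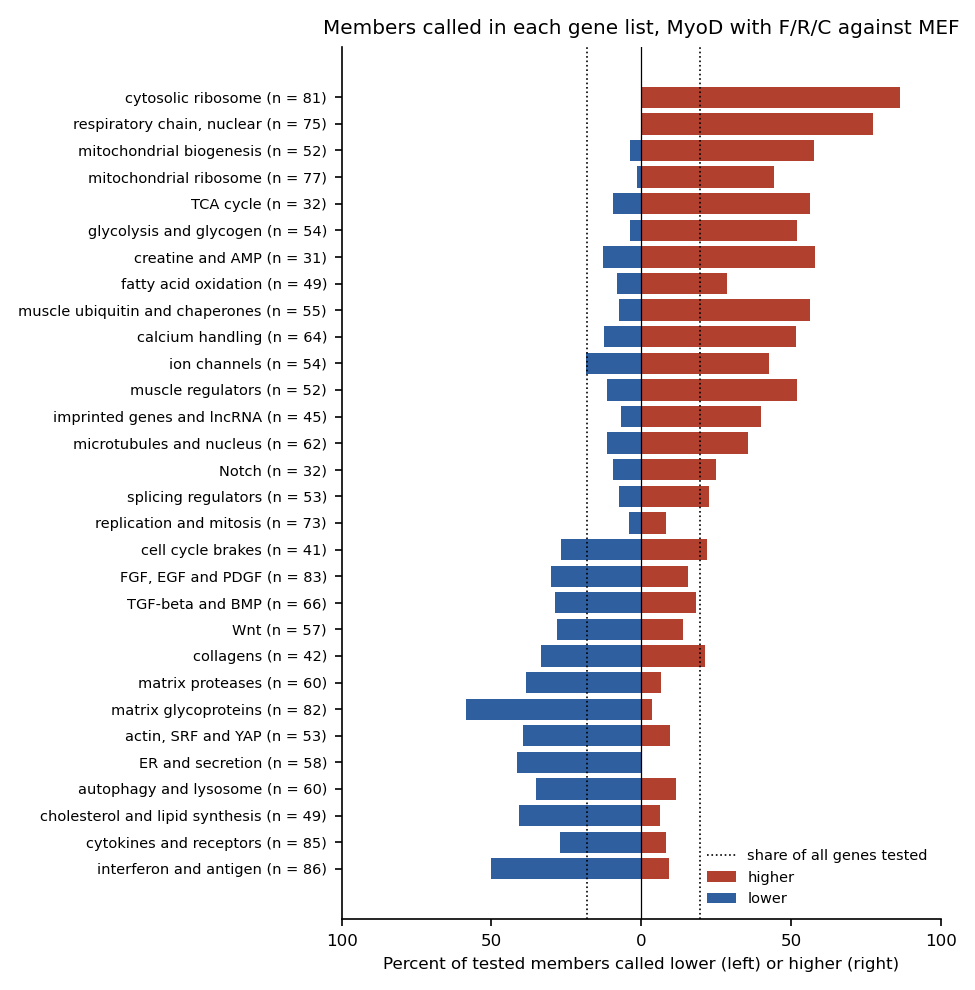
Percent of the tested members of 30 gene lists called higher (red, to the right) or lower (blue, to the left) in MyoD with F/R/C against MEF, with the number tested in brackets. Dotted lines mark the shares of all genes tested, 19.5% higher and 18.1% lower; the cytosolic ribosome list has the largest share of higher members shown and the matrix glycoproteins the largest share of lower members.

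Transcription factors and cofactors of the muscle lineage had 27 of 52 tested members higher and 6 lower, with a median log2 fold change of 2.29. Mef2c (ENSMUSG00000005583, chromosome 13, 83504034 to 83667080, GRCm38), the MADS-box partner of the MyoD family, lay at 27.9, 26.0 and 58.9 CPM in MEF and at 980, 1054 and 1116 CPM with F/R/C. All F/R/C libraries lay far above all MEF libraries, and the log2 fold change was 4.8 ± 0.54 (SE, adjusted p = 0.000568). Tead4, a DNA-binding partner of the Hippo pathway cofactors and a known MyoD target, was at 6.05, 2.46 and 4.15 CPM in MEF and 132, 114 and 99.2 CPM with F/R/C (log2 fold change 4.77 ± 0.43, adjusted p = 0.000299). Zfp106, a zinc-finger RNA-binding protein needed by muscle and motor neurons, rose from 173, 147 and 167 to 1063, 1071 and 1021 CPM, with little spread in either group. Against MyoD alone, the levels of Mef2c (adjusted p = 0.00221), Tead4 (0.000678) and Zfp106 (0.00112) also differed.

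Myog, the myogenic factor that starts terminal differentiation, was at 0.093, 0.121 and 19.1 CPM in MEF and 962, 1028 and 1544 CPM with F/R/C (log2 fold change 7.52 ± 1.85, adjusted p = 0.013). Over MEF replicates 1 and 2 alone, with 5 counts between them, the ratio was 10918, with a 95% exact Poisson interval of 4679 to 33626 that covers counting error only.

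Several developmental regulators were lower. Nfix, a nuclear factor I gene that drives the fetal stage of myogenesis, was at 639, 901 and 452 CPM in MEF and 66.5, 86.4 and 33.0 CPM with F/R/C (log2 fold change -3.42 ± 0.49, adjusted p = 0.00142). Hmga2, a chromatin protein of growing embryonic cells, fell from 252, 244 and 208 CPM to 66.1, 65.6 and 25.4 CPM. Of 46 mesenchymal transcription factors tested, 13 fell and 2 rose, with a median of -0.82, and the 2 were 0 without F/R/C replicate 1, F/R/C replicate 2 or MEF replicate 2. Foxc1, a forkhead factor of embryonic mesenchyme, was at 73.7, 54.2 and 68.5 CPM in MEF and 9.95, 13.0 and 8.79 CPM with F/R/C (log2 fold change -2.63 ± 0.26, adjusted p = 0.000406). Among 34 Hox genes, which record position along the body, 5 fell (14.7%) and 2 rose (5.88%). Both shares were below those of all genes tested, 18.1% and 19.5%. The median log2 fold change was -0.47, with 12 of the 34 positive. The summed level of the list went from 519, 399 and 340 CPM in MEF to 187, 135 and 148 CPM with F/R/C. Hoxa10 was at 71.6, 64.1 and 27.1 CPM in MEF and 9.57, 6.2 and 0.624 CPM with F/R/C (adjusted p = 0.0126). The count of lower Hox genes was 11 with the replicate number as a block and 2 without F/R/C replicate 2 or without F/R/C replicate 3. The 2 Hox genes that rose were 0 without F/R/C replicate 2, MEF replicate 2 or MEF replicate 3.

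MyoD binds E-boxes with the core CANNTG and prefers particular central letters, so the promoters of the genes that rose were searched for them. RefSeq promoter windows of GRCm38.p6, from 250 bases before to 50 bases after each start, were scanned for CAGCTG, which reads the same on both strands, and for CAGGTG, which reads CACCTG on the other strand. The 2 motifs cannot share a position, and a window with both was counted once. At least 1 of them was present in 32.9% of all 32851 windows and in 30.9% of the 14897 windows of genes tested. The share was 47% (339 of 722 windows, from 563 genes) for genes that rose by a log2 fold change of 4 or more. It was 35.5% for all genes called higher, 29.9% for genes not called and 29.5% for all genes called lower. For genes that fell by a log2 fold change of 2 or more it was 31.9%. A gene with several windows was counted once for each. For CAGCTG alone the shares were 27.4% in the genes that rose most and 16.3% in all windows, and for CAGGTG 26.6% and 20.2%. A match in these letters is a description of the sequence and not a bound site.

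Of 38 genes that were among the largest rises or in the regulator list and were called higher, 28 had a window and 13 had such an E-box between 250 and 21 bases before the start. After leaving out stretches lying more than 30 bases inside the annotated gene, 7 remained, and the 4 with the most E-boxes and the smallest adjusted p are shown. In these stretches Ankrd2 and Mybpc2 have only CAGGTG, Pitx3 has only CAGCTG, and Casq1 has CAGCTG and CAGGTG. Each line gives 230 bases of GRCm38.p6 from RefSeq, 5′ to 3′ on the gene's strand, with the E-boxes in capitals. The E-boxes begin 140 and 127 bases before the start for Ankrd2 (chr19:42035777-42036006, plus strand), 195 and 67 for Casq1 (chr1:172219916-172220145, minus strand), 157 for Mybpc2 (chr7:44524690-44524919, minus strand) and 180 for Pitx3 (chr19:46148346-46148575, minus strand).
Ankrd2: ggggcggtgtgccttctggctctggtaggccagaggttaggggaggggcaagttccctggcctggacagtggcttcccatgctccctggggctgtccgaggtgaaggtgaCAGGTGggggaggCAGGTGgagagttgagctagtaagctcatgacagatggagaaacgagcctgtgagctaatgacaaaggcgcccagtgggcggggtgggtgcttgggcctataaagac
Casq1: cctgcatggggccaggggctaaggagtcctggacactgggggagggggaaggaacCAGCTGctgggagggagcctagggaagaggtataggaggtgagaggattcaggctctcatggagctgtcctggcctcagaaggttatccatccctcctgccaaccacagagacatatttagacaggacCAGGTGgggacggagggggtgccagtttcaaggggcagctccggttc
Mybpc2: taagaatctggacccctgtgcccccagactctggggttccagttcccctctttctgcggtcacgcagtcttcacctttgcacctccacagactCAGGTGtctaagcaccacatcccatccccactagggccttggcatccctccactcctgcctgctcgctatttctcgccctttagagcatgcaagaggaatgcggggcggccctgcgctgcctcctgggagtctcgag
Pitx3: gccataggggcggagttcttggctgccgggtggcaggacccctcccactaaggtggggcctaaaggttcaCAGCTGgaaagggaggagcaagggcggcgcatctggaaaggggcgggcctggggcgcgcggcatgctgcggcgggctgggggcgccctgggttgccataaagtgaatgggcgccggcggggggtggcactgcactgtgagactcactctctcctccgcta

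These 4 promoters belong to genes that were near 0 in the first 2 MEF libraries. Ankrd2, a stretch-responsive ankyrin protein that shuttles between the sarcomere and the nucleus, was at 0.14, 0.201 and 2.68 CPM in MEF and 218, 229 and 472 CPM with F/R/C (log2 fold change 8.26 ± 1.49, adjusted p = 0.00355). Casq1, the calcium-storing calsequestrin of fast fibres, was at 0.093, 0.121 and 9.5 CPM in MEF and 815, 676 and 1202 CPM with F/R/C. Its log2 fold change was 8.12 ± 1.66, and the ratio over MEF replicates 1 and 2 alone was 8320 (95% exact Poisson interval 3565 to 25623). Mybpc2, the fast isoform of myosin-binding protein C, was at 0.0, 0.0805 and 0.415 CPM in MEF and 55.4, 55.3 and 41.0 CPM with F/R/C (adjusted p = 0.000375). Pitx3, a homeobox factor of the muscle lineage, had 0, 1 and 3 counts in MEF and 230, 248 and 361 with F/R/C (adjusted p = 0.000647).

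Genes in none of the lists were among the largest rises too. Apobec2, a muscle member of the cytidine deaminase family, was at 0.0, 0.0 and 1.38 CPM in MEF and 75.7 to 140 CPM with F/R/C (adjusted p = 0.00268), at least 872-fold higher than MEF replicates 1 and 2 at a floor of 3 counts in each. Cyp11a1, the enzyme that starts steroid synthesis from cholesterol, was at 0.0465, 0.0403 and 1.06 CPM in MEF and 37.8, 78.2 and 130 CPM with F/R/C (log2 fold change 7.75 ± 1.38, adjusted p = 0.0034). It is better known from the adrenal gland and gonads than from muscle. Smtnl2, a smoothelin-like protein, was at 0.233, 0.201 and 3.92 CPM in MEF and 184, 364 and 301 CPM with F/R/C, with a log2 fold change of 7.61 ± 1.23 (adjusted p = 0.00227). Against MyoD alone the difference also passed for Cyp11a1 (adjusted p = 0.00856) and Smtnl2 (0.0047).

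Genes of secreted proteins were among the largest falls. Penk, the enkephalin precursor, was at 5170, 4318 and 133 CPM in MEF and 6.17, 12.9 and 2.83 CPM with F/R/C (log2 fold change -8.78 ± 1.85, adjusted p = 0.00689). MEF replicate 3 lay far below the other MEF libraries and still above every F/R/C library. Adamtsl3, an ADAMTS-like matrix protein, fell from 375, 437 and 73.5 CPM to 1.43, 2.28 and 0.24 CPM, with a log2 fold change of -7.8 ± 1.45 (adjusted p = 0.00397). Itgbl1, an integrin-beta-like secreted protein, showed the same order with less spread: 337, 252 and 144 CPM in MEF and 3.9, 1.19 and 1.44 CPM with F/R/C (log2 fold change -6.8 ± 0.61, adjusted p = 0.000299).

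**Figure D3:**
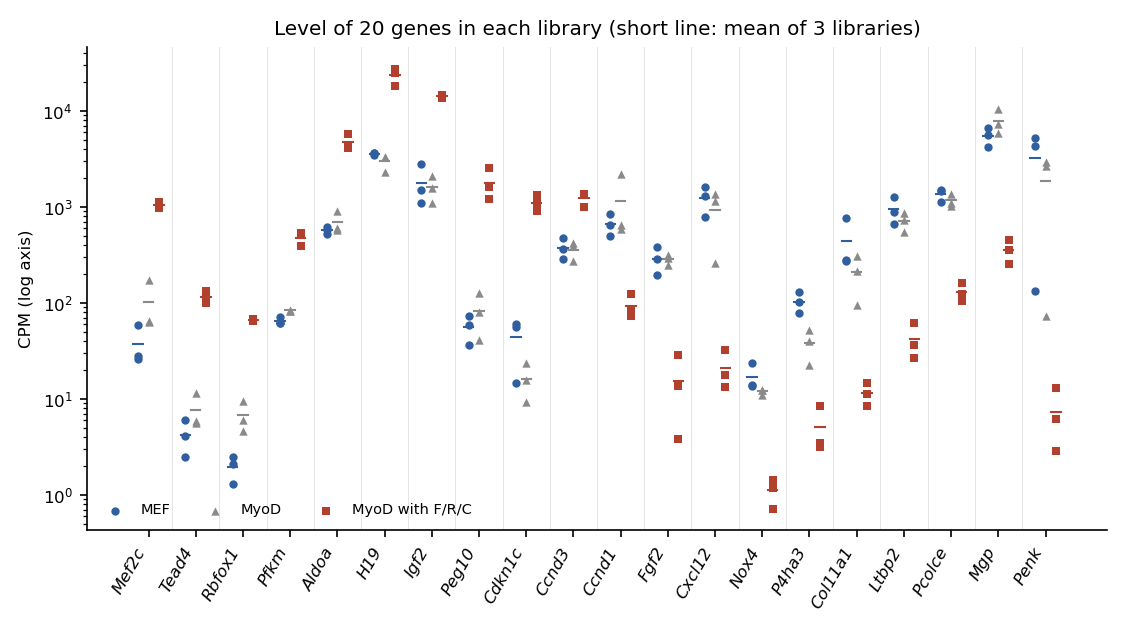
CPM (log axis) of 20 genes in each of the 9 libraries: MEF as blue circles, MyoD alone as grey triangles and MyoD with F/R/C as red squares, with a short line at each mean of 3 libraries. For Mef2c the MEF libraries sit at 26.0 to 58.9 CPM and the F/R/C libraries at 980 to 1116 CPM; for Penk, MEF replicate 3 (133 CPM) lies apart from the other MEF libraries.

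Genes of energy metabolism were higher, muscle forms among them. Of 54 genes of glycolysis and glycogen, 28 rose and 2 fell (1 fell without F/R/C replicate 2, F/R/C replicate 3 or MEF replicate 2). Their median log2 fold change was 1.18, and their summed level went from 7314, 6360 and 7874 CPM in MEF to 23061, 25902 and 27960 CPM with F/R/C. Pfkm, the muscle phosphofructokinase that commits sugar to glycolysis, was at 61.3, 70.5 and 61.4 CPM in MEF and 392, 541 and 506 CPM with F/R/C (log2 fold change 2.9 ± 0.19, adjusted p = 0.000178). Aldoa, the muscle aldolase, rose from 578, 522 and 615 to 4075, 4472 and 5765 CPM (3.06 ± 0.3, adjusted p = 0.000375). For glycogen, the synthase Gys1 rose from 51.4, 29.9 and 50.1 to 409, 510 and 417 CPM, and Pgm1, which links glucose 1-phosphate with glucose 6-phosphate, from 56.1, 45.4 and 48.8 to 189, 188 and 211 CPM. For all 4 genes the libraries of the groups did not overlap, as for 53.2% of all genes tested, and all 4 also differed from MyoD alone (adjusted p = 0.000286 to 0.000707).

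Within several enzyme families the muscle member held most of the transcripts with F/R/C. These families were picked after their values were seen, and the shares are of the family's summed TPM. Pygm, the muscle glycogen phosphorylase, held 5.77%, 2.87% and 13.3% of phosphorylase TPM in MEF and 93.5% ± 1.13 (SD, n = 3) with F/R/C. The brain form Pygb went from 85.8% ± 6.6 to 3.85% ± 0.256, and in CPM it fell (136, 155 and 124 against 31.7, 39.5 and 29.8, adjusted p = 0.000265). Pgam2, the muscle phosphoglycerate mutase, held 0.149%, 0.424% and 4.4% in MEF replicates 1 to 3 and 72.9% ± 11.5 with F/R/C, while the level of Pgam1 did not pass the test (299, 230 and 262 CPM against 348, 355 and 259, adjusted p = 0.389). Creatine kinase, which buffers ATP, showed the same exchange of shares. Ckm held 0.0998%, 0.105% and 4.38% in MEF and 78.6% ± 5.07 with F/R/C, beside a Ckb level that did not pass (44.7, 50.2 and 48.4 CPM against 56.1, 45.2 and 49.3, adjusted p = 0.833). Enolase was mixed: the muscle gene Eno3 reached 39.2% ± 2.02 of the family with F/R/C from 1.1%, 2.96% and 7.3% in MEF, and Eno1 remained the largest member at 59.8% ± 1.66. Lactate dehydrogenase kept its balance, with Ldha at 85.8% ± 9.59 in MEF and 87.1% ± 1.33 with F/R/C.

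**Figure D4:**
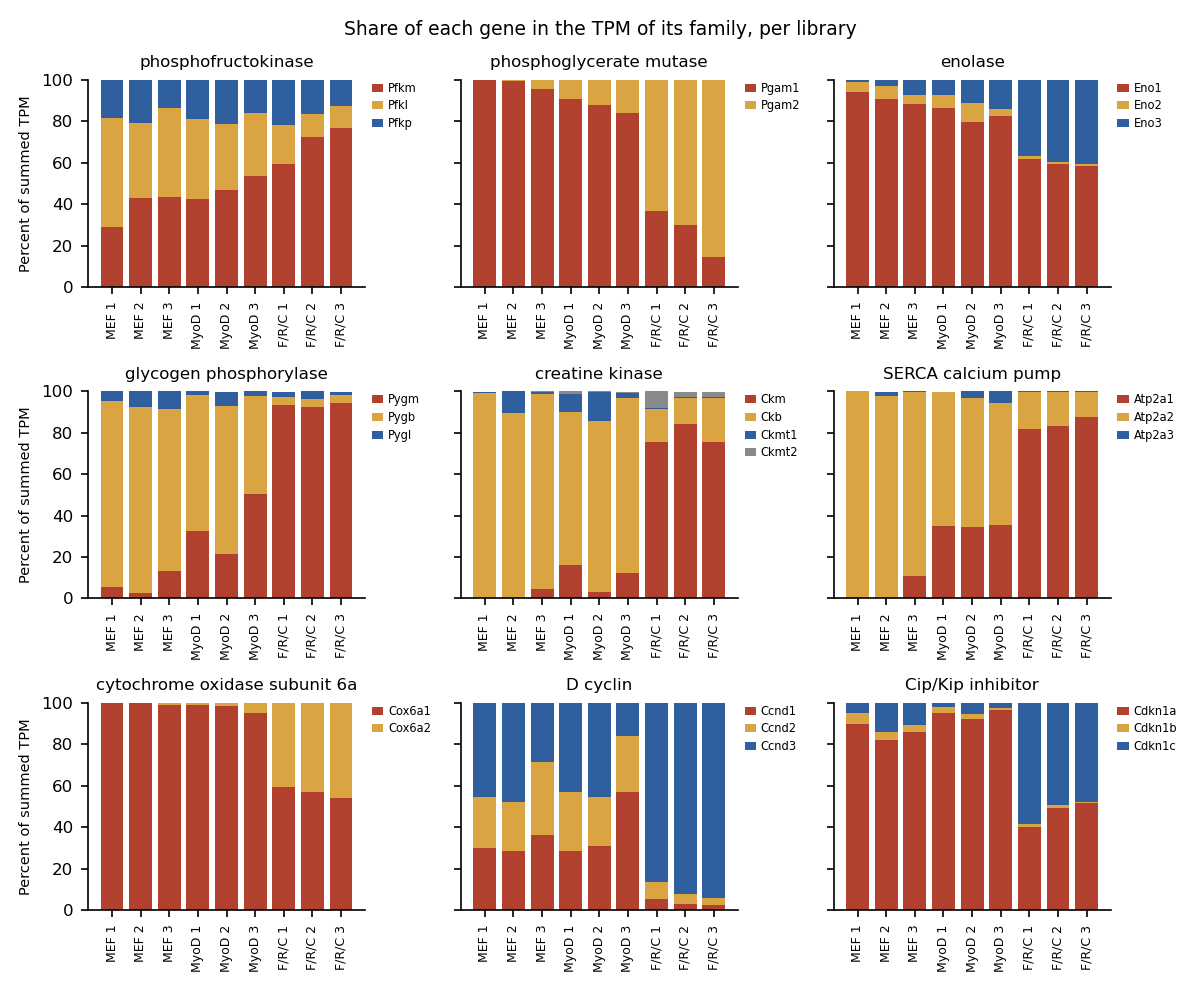
Stacked bars give the share of each gene in the summed TPM of its family (percent, from 0 to 100) in each of the 9 libraries, for 9 families. The muscle members Pygm, Ckm, Pgam2 and Atp2a1 form most of the bar in the F/R/C libraries and little of it in the MEF libraries. Among the D cyclins, Ccnd3 grows from a mean of 40.5% in MEF to 91% with F/R/C.

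Of 32 genes of the citric acid cycle, 18 rose and 3 fell, with a median of 0.84. Pdhb, a subunit of pyruvate dehydrogenase, was at 52.1, 59.6 and 56.9 CPM in MEF and 141, 149 and 207 CPM with F/R/C (log2 fold change 1.56 ± 0.19, adjusted p = 0.000757). The 3 that fell included the cytosolic NADPH-forming enzymes Me1 (100, 117 and 95.6 against 31.6, 38.9 and 34.2 CPM) and Idh1 (124, 201 and 229 against 54.2, 73.7 and 42.6 CPM). For fatty acid oxidation, 14 of 49 genes rose and 4 fell, with a median of 0.36. Cd36, the fatty acid transporter, rose from 11.5, 8.25 and 6.09 to 111, 107 and 122 CPM (log2 fold change 3.72 ± 0.27, adjusted p = 0.000227). Of the carnitine palmitoyltransferases that gate entry of fat into mitochondria, Cpt1b, the muscle form, went from 0.828% ± 0.728 to 37.5% ± 5.32 of the family's TPM. The liver form Cpt1a fell from 188, 222 and 292 to 61.7, 47.5 and 37.1 CPM (-2.26 ± 0.26, adjusted p = 0.000605). The count of 4 lower genes in this list was 2 without MEF replicate 2, without F/R/C replicate 1 or without F/R/C replicate 3.

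Creatine, AMP and oxygen-handling genes rose in 18 of 31 cases and fell in 4. Mb, the oxygen store myoglobin, was at 0.0, 0.201 and 0.508 CPM in MEF and 41.5, 29.5 and 48.8 CPM with F/R/C (adjusted p = 0.000471), although its difference from MyoD alone did not pass (adjusted p = 0.101). Prkag3, the muscle gamma subunit of AMP kinase, was at 0.326, 0.0805 and 0.784 CPM in MEF and 51.1, 27.9 and 63.3 CPM with F/R/C (6.9 ± 0.78, adjusted p = 0.000582). Slc6a8, the creatine transporter, was lower with F/R/C at 116, 121 and 105 CPM against 184, 187 and 201 CPM (-0.74 ± 0.15, adjusted p = 0.00528). Genes of mitochondrial biogenesis and quality control rose in 30 of 52 cases, 18 without MEF replicate 2. Coq8a, an atypical kinase needed for coenzyme Q synthesis, rose from 6.37, 14.4 and 9.6 to 117, 155 and 156 CPM (3.81 ± 0.34, adjusted p = 0.00028).

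Most genes of the respiratory chain and the ribosome were higher. Of 75 nuclear genes of oxidative phosphorylation, 58 rose and 0 fell (74 of the 75 had a positive fold change, median 1.1). Cyc1, the cytochrome c1 of complex III, was at 67.0, 70.4 and 67.8 CPM in MEF and 203, 198 and 284 CPM with F/R/C (log2 fold change 1.74 ± 0.18, adjusted p = 0.000471). Cytochrome oxidase gained its muscle subunits: Cox6a2 went from 0%, 0% and 0.862% in MEF to 43.1% ± 2.77 of the TPM of subunit 6a, and Cox8b from 0.192% ± 0.26 to 20.6% ± 2.27 of subunit 8. All 13 protein-coding genes of the mitochondrial genome were called higher, but the count was 6 without MEF replicate 2, 7 without MEF replicate 3, 8 without F/R/C replicate 1 and 2 without replicate 3 of both groups. The mitochondrial share of all counts was 0.8186% to 1.095% in MEF and 3.088%, 1.545% and 2.614% with F/R/C, with F/R/C replicate 2 the lowest of its group and above every MEF library.

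Of 81 genes of the cytosolic ribosome, 70 rose and 0 fell, with a median log2 fold change of 1.0. Summed, they reached 32011, 31490 and 30327 CPM in MEF and 46102, 53959 and 84552 CPM with F/R/C, highest in F/R/C replicate 3. Rps7, a protein of the small subunit, was at 376, 343 and 350 CPM in MEF and 700, 805 and 1173 CPM with F/R/C (log2 fold change 1.32 ± 0.24, adjusted p = 0.00347). The number called was 30 without MEF replicate 2, 40 without MEF replicate 3, 41 without MEF replicate 1 and 19 without replicate 3 of both groups. These genes are short, with a median effective length of 437 bases, and stood 0.8 higher on the log2 scale in F/R/C replicate 3 than in the other F/R/C libraries; the respiratory genes, at 498 bases, stood 0.82 higher. Over the 2252 genes tested of shortest effective length (median 704 bases), 24.8% rose and 11.3% fell, and of the 2048 such genes outside the ribosome and respiration lists 20.4% rose and 12.4% fell. The part of transcript length in these results was not tested.

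Ribosome biogenesis genes rose in 24 of 50 cases, but in 7 without MEF replicate 2 and in 14 without MEF replicate 3 or F/R/C replicate 3. Rrp12, a ribosome export factor, rose from 29.5, 16.9 and 19.9 to 137, 115 and 160 CPM (log2 fold change 2.63 ± 0.31, adjusted p = 0.000686). Mycl, a MYC family transcription factor, was at 0.0465, 0.644 and 1.38 CPM in MEF and 43.4, 36.6 and 40.3 CPM with F/R/C (adjusted p = 0.00325). Mitochondrial ribosome genes rose in 34 of 77 cases, and in 13 without MEF replicate 2, 19 without MEF replicate 1, 19 without MEF replicate 3 and 22 without F/R/C replicate 3. Eef1a2, the muscle and neuron form of elongation factor 1A, had 17.5, 2.46 and 2.69 CPM with F/R/C and at most 0.138 CPM in MEF (adjusted p = 0.00309), while Eef1a1 at 5202, 6067 and 6310 against 8258, 9518 and 11654 CPM did not pass (adjusted p = 0.0801).

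**Figure D5:**
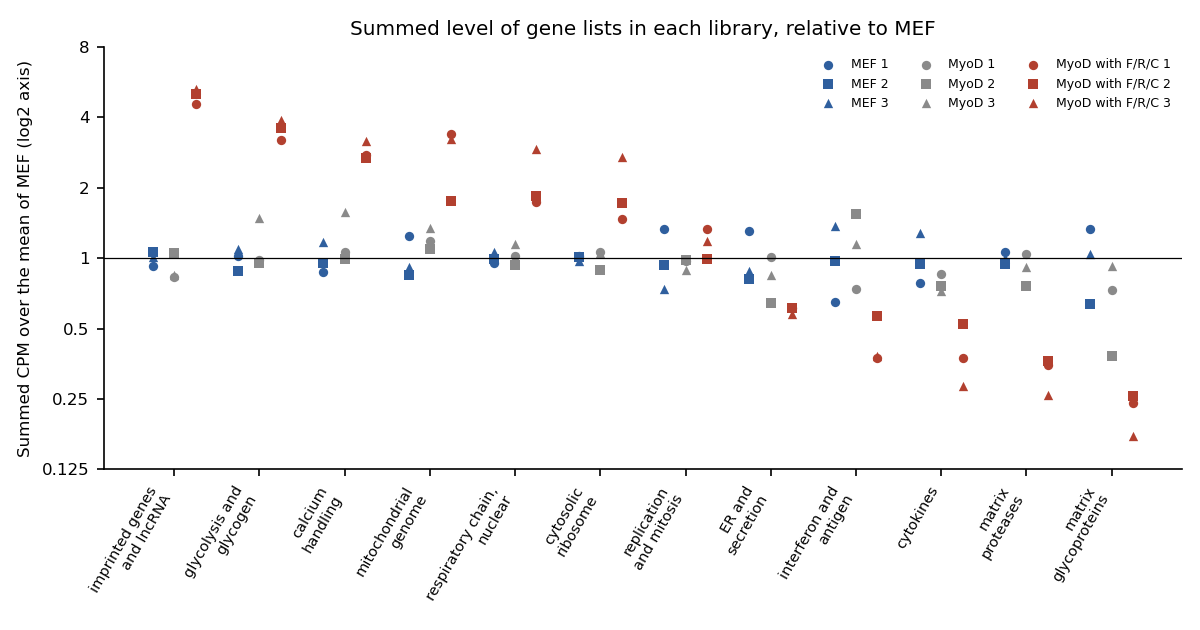
Summed CPM of 12 gene lists in each of the 9 libraries divided by the mean of the MEF libraries (log2 axis, 1 marks the MEF mean); colour gives the group and shape the replicate. The ribosome and respiratory lists are highest in F/R/C replicate 3 and among the F/R/C libraries the mitochondrial genome is lowest in replicate 2, while the imprinted list lies above every MEF library in all 3 F/R/C libraries.

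The machinery of calcium release and storage rose in 33 of 64 genes and fell in 8, with a median of 1.28. Cacnb1, the beta subunit of the muscle voltage sensor channel, was at 21.1, 15.3 and 15 CPM in MEF and 198, 201 and 237 CPM with F/R/C (log2 fold change 3.63 ± 0.24, adjusted p = 0.00021). Tmem38a, a counter-ion channel of the muscle reticulum, rose from 9.35, 17.8 and 17.2 to 334, 315 and 491 CPM (4.68 ± 0.37, adjusted p = 0.000227). The sodium-calcium exchangers moved in opposite directions. Slc8a3, the exchanger of skeletal muscle and brain, was at 1.63, 1.89 and 3.23 CPM in MEF and 42.8, 52.7 and 64.9 CPM with F/R/C (4.57 ± 0.39, adjusted p = 0.000265). Slc8a1, the cardiac and general form, fell from 195, 195 and 114 to 23.7, 23.9 and 11.4 CPM (-3.1 ± 0.41, adjusted p = 0.00107). Of the calcium-calmodulin kinases, Camk2b rose from 1.95, 1.17 and 2.68 to 104, 141 and 189 CPM, and Camk1 fell from 73.4, 70.8 and 93.0 to 25.9, 27.2 and 27.2 CPM. The fast-fibre calcium pump Atp2a1 held 84.4% ± 2.97 of the TPM of its family with F/R/C and 0%, 0.104% and 10.7% in MEF replicates 1 to 3.

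Ion channels and pumps split, with 23 of 54 genes higher and 10 lower and a median of 1.12. Ano5, an anoctamin whose loss causes a limb-girdle muscular dystrophy, rose from 0.884, 0.282 and 1.06 to 53.5, 38.4 and 33.8 CPM (log2 fold change 5.82 ± 0.56, adjusted p = 0.00036). Atp1b1, a beta subunit of the sodium pump, fell from 124, 145 and 45.7 to 24, 30.8 and 17.6 CPM (adjusted p = 0.00794). Also lower was Trpm7, a channel with a kinase domain (121, 117 and 127 against 56.7, 50.4 and 31.4 CPM).

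Cell cycle genes did not move as a block. Of 73 genes of replication and mitosis, 6 rose and 3 fell, against shares of 19.5% and 18.1% for all genes, and they added up to 1473, 1038 and 820 CPM in MEF and 1485, 1098 and 1314 CPM with F/R/C. The count of higher genes was 3 without MEF replicate 2 and 2 without replicate 3 of both groups. E2F factors of the list moved both ways. E2f1, the activator of S phase, fell from 57.4, 65.1 and 54.8 to 22.9, 20.7 and 15.8 CPM (log2 fold change -1.58 ± 0.18, adjusted p = 0.000601). E2f2 rose from 0.744, 0.362 and 2.35 to 103, 80.0 and 86.2 CPM (6.29 ± 0.79, adjusted p = 0.000847), and the atypical repressor E2f8 from 5.91, 2.7 and 3.55 to 96.9, 75.9 and 66.8 CPM (4.3 ± 0.48, adjusted p = 0.000572).

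Among regulators of the G1 stage, several changed. Ccnd1, a D cyclin that drives entry into S phase, was at 501, 642 and 846 CPM in MEF and 123, 83.6 and 72.5 CPM with F/R/C (log2 fold change -2.83 ± 0.55, adjusted p = 0.00479). Ccnd2 fell from 654, 824 and 1292 to 252, 213 and 164 CPM. Ccnd3, the D cyclin retained by differentiated muscle, rose, and went from 40.5% ± 10.4 to 91% ± 4.17 of D cyclin TPM. The inhibitor Cdkn1c (ENSMUSG00000037664, chromosome 7, 143458339 to 143461050) was at 14.6, 55.7 and 60.7 CPM in MEF and 1111, 902 and 1323 CPM with F/R/C (4.67 ± 0.6, adjusted p = 0.000895), with every F/R/C library more than 10 times above every MEF library. Rb1, the retinoblastoma gene that keeps muscle nuclei out of the cell cycle, rose from 25.5 ± 10.6 to 128 ± 3.06 CPM (SD, n = 3; log2 fold change 2.33 ± 0.45, adjusted p = 0.00469). The stress gene Gadd45a rose from 14.5, 19.2 and 35.5 to 248, 257 and 399 CPM, and the death receptor Fas fell from 26.5, 45.0 and 28.3 to 5.25, 4.51 and 5.14 CPM. In the list of 41 inhibitors and other G1 regulators, which also holds Ccnd1 and Ccnd2, 9 rose (22%) and 11 fell (26.8%). For all genes tested the shares were 19.5% and 18.1%. The number that fell was 7 without F/R/C replicate 1.

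Imprinted genes, which are expressed from 1 parental copy and many of which control fetal growth, were counted in 1 list with muscle-linked long non-coding RNAs. Of 45 tested, 18 rose and 3 fell, with a median log2 fold change of 0.61. The summed level of the list went from 10053, 11390 and 10942 CPM in MEF to 49477, 54520 and 57193 CPM with F/R/C. Such a sum gives most weight to the most abundant genes. The number that fell was 6 without F/R/C replicate 1. H19 (ENSMUSG00000000031, chromosome 7, 142575529 to 142578143), a non-coding RNA, was at 3619, 3611 and 3452 CPM in MEF and 18239, 24636 and 27390 CPM with F/R/C (log2 fold change 2.72 ± 0.35, adjusted p = 0.000879). Its neighbour Igf2 (142650766 to 142666816), expressed from the other parental copy, went from 1112, 2769 and 1505 to 13736, 14147 and 14718 CPM (2.98 ± 0.44, adjusted p = 0.0016). Both also differed from MyoD alone (adjusted p = 0.00103 for H19 and 0.00183 for Igf2). The share of H19 in the summed TPM of H19, Igf2 and Cdkn1c was 72.1% ± 9.63 in MEF and 64.1% ± 3.67 with F/R/C.

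The imprinted cluster on chromosome 12 held genes of both parental copies that rose. Meg3 (109541001 to 109571726), a maternal non-coding RNA, rose from 567, 268 and 371 to 3899, 1913 and 2851 CPM (log2 fold change 2.85 ± 0.46, adjusted p = 0.00229). Rian and Mirg, the further maternal transcripts, rose from 153, 77.9 and 183 to 1344, 1208 and 1390 CPM and from 14.3, 5.35 and 9.41 to 238, 144 and 231 CPM. Dlk1 (109452823 to 109463336), a paternal gene for a Notch-like membrane protein, rose from 156, 116 and 83.6 to 1245, 2144 and 2108 CPM (3.95 ± 0.85, adjusted p = 0.00757), a call that ended at an adjusted p of 0.0608 without replicate 3 of both groups. Rtl1, a paternal gene derived from a retrotransposon, was at 0.605, 0.0 and 1.8 CPM in MEF and 50.4, 104 and 76.6 CPM with F/R/C. Dio3, the thyroid hormone deiodinase at the far end of the cluster, did not pass (5.81, 4.51 and 15 against 9.11, 9.44 and 5.19 CPM, adjusted p = 0.913). Elsewhere, Peg10, a paternal gene with a viral-type frameshift, rose from 73.5, 36.8 and 59.1 to 1629, 2520 and 1200 CPM (4.98 ± 0.54, adjusted p = 0.000503), and Slc22a18 fell from 6.56, 16.6 and 8.54 to 0.42, 0.638 and 0.384 CPM (-4.44 ± 0.5, adjusted p = 0.000575).

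Growth factor genes had more members lower than higher. Of 83 genes of the FGF, EGF and PDGF families and their receptors, 25 fell and 13 rose, with a median of -0.57. Fgf2, a ligand that keeps myoblasts dividing, was at 194, 383 and 290 CPM in MEF and 13.6, 28.6 and 3.79 CPM with F/R/C (log2 fold change -4.24 ± 0.66, adjusted p = 0.00194). Pdgfd fell from 76.2, 128 and 133 to 12.1, 10.1 and 8.93 CPM, whereas its relative Pdgfb rose from 0.372, 0.242 and 0.554 to 15.3, 19.3 and 13.7 CPM (5.36 ± 0.48, adjusted p = 0.000299). Fgf11, an intracellular FGF homologue that is not secreted, rose from 1.76 ± 0.475 to 51.2 ± 7.2 CPM (SD, n = 3; log2 fold change 4.86 ± 0.28, adjusted p = 0.000177). Among 33 genes of the IGF and mTOR axis, 6 rose (18.2%) and 8 fell (24.2%), against 19.5% and 18.1% of all genes tested. The number lower was 5 without replicate 3 of both groups. Igfbp4, which binds IGF outside the cell, fell from 2965, 2552 and 1877 to 533, 1004 and 492 CPM, and Pappa, the protease that cuts it, from 142, 68.0 and 65.9 to 8.56, 21.4 and 5.04 CPM (adjusted p = 0.00526 and 0.00393).

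In the TGF-beta and BMP pathway 19 of 66 genes fell and 12 rose, with a median of -0.6; the number lower was 9 without F/R/C replicate 3 and 12 without F/R/C replicate 1. Ltbp1, which stores latent TGF-beta in the matrix, fell from 713, 1139 and 1140 to 149, 150 and 91.9 CPM (log2 fold change -2.94 ± 0.3, adjusted p = 0.000422). Mstn, the muscle-specific inhibitor of muscle growth, rose from 1.63, 0.403 and 5.35 to 291, 247 and 204 CPM (6.65 ± 0.87, adjusted p = 0.000974). Wnt genes fell in 16 of 57 cases and rose in 8, the latter count being 4 without MEF replicate 1 and 5 without F/R/C replicate 1 or 2. Wls, the carrier that brings Wnt proteins to the surface, fell from 798, 458 and 579 to 178, 152 and 138 CPM, and the receptor gene Fzd9 rose from 0.651, 1.05 and 1.34 to 34.1, 45.0 and 47.2 CPM (5.37 ± 0.42, adjusted p = 0.000227).

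Notch genes had 8 of 32 tested members higher (25%) and 3 lower (9.38%), against 19.5% and 18.1% of all genes tested. The number lower was 6 with the replicate block. Of the ligand genes, Jag2 and Dll1 rose. Jag2 was at 0.884, 2.37 and 2.45 CPM in MEF and 107, 133 and 111 CPM with F/R/C (log2 fold change 5.94 ± 0.53, adjusted p = 0.000299), and Dll1 at 0.698, 1.57 and 1.48 against 20 to 32.1 CPM (4.4 ± 0.74, adjusted p = 0.00271). The receptor gene Notch2 and the coactivator gene Maml2 fell, from 170, 171 and 234 to 56.9, 40.4 and 23.6 CPM and from 58.1, 38.8 and 55.5 to 7.6, 12.9 and 4.99 CPM. Heyl, a transcriptional target of Notch, had 0.0, 0.0 and 0.554 CPM in MEF and 38.3, 22.7 and 36.6 CPM with F/R/C. Its log2 fold change was 7.45 ± 1.25, and its level was at least 250-fold higher than in MEF replicates 1 and 2 at the floor. In the Hedgehog pathway 4 of 14 genes fell and 0 rose, and 2 fell without MEF replicate 1, F/R/C replicate 1 or F/R/C replicate 3. Smo, the signal transducer, was at 201, 259 and 210 CPM in MEF and 59.8, 59.7 and 39.8 CPM with F/R/C (-2.07 ± 0.22, adjusted p = 0.0005).

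Genes of cAMP and receptor signalling, of which 17 of 104 rose and 19 fell, had shares near the background. The number lower was 29 with the replicate block and 11 without F/R/C replicate 3, and the number higher was 11 without F/R/C replicate 2 and 10 without MEF replicate 2. Sik1, a kinase gene induced by cAMP that protects Mef2 activity, rose from 16.4, 28.3 and 37.7 to 381, 459 and 379 CPM (log2 fold change 3.89 ± 0.4, adjusted p = 0.000435). Adcy3, an adenylyl cyclase, fell from 78.3, 78.8 and 66.4 to 24, 32.6 and 18.1 CPM (-1.58 ± 0.24, adjusted p = 0.00166).

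Of the 64 lists, matrix glycoproteins had the highest share of lower members. Of 82 glycoproteins and proteoglycans, 48 fell and 3 rose, with a median of -2.13, and their summed level went from 80757, 38715 and 63371 CPM in MEF to 14685, 15744 and 10592 CPM with F/R/C. Ltbp2, a fibrillin-binding protein of elastic fibres, was at 875, 1282 and 668 CPM in MEF and 36.8, 62.4 and 26.6 CPM with F/R/C (log2 fold change -4.49 ± 0.43, adjusted p = 0.00036). Loxl3, which cross-links collagen and elastin, fell from 432, 464 and 298 to 46.6, 39.1 and 36.2 CPM (-3.29 ± 0.27, adjusted p = 0.000233). The exceptions that rose included Gpc1, a heparan sulfate proteoglycan of the surface (215, 353 and 213 against 849, 692 and 804 CPM, adjusted p = 0.00248).

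Of 42 collagens, 14 were lower (9 without replicate 3 of both groups) and 9 higher, the latter a share near that of all genes. Col11a1, which sets the diameter of fibrils, was at 765, 274 and 277 CPM in MEF and 11.2, 14.6 and 8.5 CPM with F/R/C (log2 fold change -5.26 ± 0.62, adjusted p = 0.000652). Col15a1, a collagen of the basement membrane zone around muscle fibres, rose from 27.5, 26.7 and 22.4 to 212, 283 and 193 CPM (3.17 ± 0.4, adjusted p = 0.000879). The most abundant, Col3a1, did not pass: 32338, 10766 and 4959 CPM in MEF spread more than 6-fold, against 3485, 1888 and 1799 CPM (adjusted p = 0.066). Matrix proteases and their inhibitors fell in 23 of 60 cases and rose in 4, the latter being 7 without MEF replicate 3 and 2 without MEF replicate 2 or any 1 of the F/R/C libraries. Pcolce, the enhancer of procollagen cleavage, fell from 1131 to 1492 CPM in MEF to a range of 105 to 160 CPM (-3.39 ± 0.27, adjusted p = 0.000227), and the inhibitor Timp3 from 2216, 1328 and 1568 to 168, 189 and 186 CPM. Adamts20, a secreted metalloprotease, rose from 1.07, 0.322 and 0.83 to 86.5, 74.0 and 64.5 CPM (6.66 ± 0.58, adjusted p = 0.000266).

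Genes of protein secretion were lower as well. Of 58 genes of the endoplasmic reticulum and secretion, 24 fell and 0 rose, with a median of -0.65; the number was 14 without F/R/C replicate 1 and 15 without F/R/C replicate 3 or MEF replicate 1. The 4 named by the rule all act on collagen. P4ha3, a prolyl 4-hydroxylase, was at 129, 79.1 and 101 CPM in MEF and 8.48, 3.15 and 3.46 CPM with F/R/C (log2 fold change -4.35 ± 0.49, adjusted p = 0.000592). P3h3 and Crtap, of the prolyl 3-hydroxylase complexes, fell from 444, 450 and 320 to 57.5, 70.0 and 42.1 CPM and from 349, 349 and 271 to 68.9, 86.3 and 64.7 CPM. Fkbp14, a collagen chaperone, fell from 115, 68.8 and 78.8 to 16.1, 15.7 and 13.3 CPM (-2.54 ± 0.26, adjusted p = 0.000437). Lysosome and autophagy genes fell in 21 of 60 cases and rose in 7. Ctsk, a collagen-degrading cathepsin, fell from 68.1, 87.1 and 107 to 18.8, 23.2 and 16.7 CPM, while Foxo4, a transcription factor of atrophy and autophagy genes, rose from 18.3, 19.7 and 21.1 to 133, 128 and 154 CPM (2.81 ± 0.18, adjusted p = 0.000178).

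Innate immune genes had the next highest share of lower members. Of 86 genes of interferon response and antigen presentation, 43 fell and 8 rose, with a median of -1.67; the number lower was 26 without F/R/C replicate 3 and 54 with the replicate block. Tap1, the peptide transporter of antigen presentation, fell from 48.1, 77.2 and 62.5 to 14.8, 19 and 9.8 CPM (log2 fold change -2.11 ± 0.35, adjusted p = 0.00258). The GTPases Igtp and Irgm2 went the other way, from 9.68, 9.58 and 14.1 to 54.9, 108 and 94.3 CPM and from 17.6, 23.3 and 26.0 to 97.9, 140 and 107 CPM (adjusted p = 0.00117 and 0.00134). Of 85 cytokines and their receptors 23 fell and 7 rose, 12 lower without F/R/C replicate 3 and 14 without F/R/C replicate 1. Cxcl12, a chemokine made by stromal cells, was at 782, 1627 and 1292 CPM in MEF and 13.3, 32.1 and 17.9 CPM with F/R/C (-5.87 ± 0.72, adjusted p = 0.000773), and its receptor gene Cxcr4 at no more than 0.138 CPM in MEF and 2.14, 3.97 and 3.17 CPM with F/R/C (adjusted p = 0.00243).

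Cytoskeletal genes moved both ways. Of 53 genes of actin, SRF and YAP, 21 fell and 5 rose, the former being 9 without F/R/C replicate 2 and 12 without F/R/C replicate 3, and the latter 3 without F/R/C replicate 1, F/R/C replicate 3 or MEF replicate 2. Actg1, the non-muscle actin, fell from 3329, 3119 and 4332 to 940, 718 and 848 CPM (log2 fold change -2.1 ± 0.32, adjusted p = 0.00177), and Myh10, a non-muscle myosin, from 997, 539 and 958 to 146, 131 and 134 CPM. Of 62 microtubule and nuclear-envelope genes, 22 rose and 7 fell, 4 lower without F/R/C replicate 2 or 3. Akap6, the anchor that ties centrosomal proteins to the nuclear envelope of muscle cells, rose from 0.791, 2.29 and 6.23 to 176, 184 and 129 CPM (5.71 ± 0.83, adjusted p = 0.00147). Of 74 integrin, laminin and membrane-linkage genes, 20 rose (27%) and 17 fell (23%), against 19.5% and 18.1% of all genes tested. The number lower was 11 without replicate 3 of both groups. Sgca, a sarcoglycan that binds the dystrophin complex, was at 2.42, 1.89 and 1.29 CPM in MEF and 56.0, 53.2 and 77.9 CPM with F/R/C (5.06 ± 0.32, adjusted p = 0.000177), and Bin1, which shapes the tubules of the muscle membrane, rose from 105, 76.6 and 99.4 to 1009, 982 and 1752 CPM (3.73 ± 0.32, adjusted p = 0.000265).

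Adhesion and fusion genes rose in 10 of 44 cases and fell in 14. These shares were 22.7% and 31.8%, against 19.5% and 18.1% of all genes tested. Ncam1, a cell adhesion molecule of myoblasts and regenerating fibres, rose from 56.6, 36.7 and 74.2 to 627, 427 and 530 CPM (log2 fold change 3.24 ± 0.45, adjusted p = 0.00119). Vcam1, an adhesion molecule of stroma and of satellite cells, fell from 248 to 405 CPM in MEF to a range of 18.6 to 50 CPM (-3.25 ± 0.4, adjusted p = 0.000782). The fusion genes Mymk and Mymx both rose. Mymk was at 0.233, 0.121 and 7.38 CPM in MEF and 544, 501 and 966 CPM with F/R/C (8.03 ± 1.5, adjusted p = 0.00416), and Mymx at 0.0, 0.0403 and 1.48 CPM against 70.9, 64.4 and 158 CPM (adjusted p = 0.0026). For Mymx the ratio over MEF replicates 1 and 2 alone, with 1 count between them, was 4536 (95% exact Poisson interval 814 to 179159).

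Regulators of RNA splicing held 12 genes that rose and 4 that fell of 53, with a median of -0.07. The higher share, 22.6%, was near the 19.5% of all genes tested, and the lower share was 7.55% against 18.1%. The number that fell was 2 without F/R/C replicate 2. Rbfox1 (ENSMUSG00000008658, chromosome 16, 5885355 to 7411526), which directs splicing in muscle, heart and brain, was at 2.09, 2.46 and 1.29 CPM in MEF and 65.4, 68.1 and 67.5 CPM with F/R/C (log2 fold change 5.1 ± 0.36, adjusted p = 0.000227). Rbm20, which controls splicing of titin, rose from 0.279, 0.161 and 1.2 to 77.0, 78.6 and 100 CPM (7.29 ± 0.89, adjusted p = 0.000744), and Celf2 from 17.2, 15 and 19.1 to 251, 231 and 187 CPM. Ptbp1, which represses muscle and neuronal exons, fell from 322, 292 and 316 to 132, 112 and 76.2 CPM (-1.53 ± 0.22, adjusted p = 0.00136). Mbnl1, a muscleblind protein that drives adult splicing, fell from 216, 198 and 258 to 71.1, 83.0 and 49.3 CPM, and its share of muscleblind TPM went from 52.2% ± 4.16 to 21.7% ± 6.12.

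Chromatin regulators moved in both directions in shares below the background, 13 of 69 higher and 11 lower. The number higher was 4 without MEF replicate 2, 5 without F/R/C replicate 1, 6 without MEF replicate 3 and 8 without F/R/C replicate 2, and the number lower was 7 without F/R/C replicate 3. Hdac11, a histone deacetylase found in muscle and brain, rose from 15.5, 22.5 and 16 to 76.3, 91.8 and 95.3 CPM (log2 fold change 2.28 ± 0.23, adjusted p = 0.000385). Bmi1, a Polycomb protein of proliferating cells, fell from 92.0, 73.9 and 60.9 to 30.5, 25.5 and 20.5 CPM (-1.57 ± 0.26, adjusted p = 0.00246). Protein turnover genes of muscle, with 31 of 55 higher and 4 lower, gained heat shock proteins of muscle: Hspb2 rose from 2.09, 1.57 and 4.84 to 90.4, 93.0 and 193 CPM (5.47 ± 0.71, adjusted p = 0.000932), while Hspb6 fell from 67.2, 66.7 and 49.4 to 20.3, 24.1 and 12.1 CPM. The 4 lower were 2 without MEF replicate 2, F/R/C replicate 1 or F/R/C replicate 3.

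Markers of muscle stem cells and of other tissues were counted in the same way. Of 28 satellite cell markers, 13 rose and 6 fell. Megf10, a satellite cell receptor, rose from 5.86, 10.7 and 3.05 to 158, 92.9 and 127 CPM (log2 fold change 4.26 ± 0.45, adjusted p = 0.000463), and Cd34 fell from 100, 88.8 and 20.9 to 6.92, 10.9 and 6.91 CPM. Pax7, which defines satellite cells, had 0.0, 0.0 and 0.692 CPM in MEF and 30.3, 17.0 and 8.35 CPM with F/R/C. Its log2 fold change was 6.32 ± 1.41, and its level was at least 143-fold higher than in MEF replicates 1 and 2 at the floor. Of 22 heart markers 14 were tested and 7 rose. Among these was Myl4, a myosin light chain of the atrium and of fetal skeletal muscle. It was at 3.02, 4.63 and 47.2 CPM in MEF and 2590, 2793 and 5579 CPM with F/R/C. The 8 too low to test included Nkx2-5 (0, 4 and 2 counts with F/R/C), Myl7 (0, 1 and 0) and Bmp10 (0, 1 and 1). Also among them were Tbx20 (5, 3 and 1 counts), Nppa (5, 12 and 15) and Myl3 (12, 34 and 6). The cardiac transcription factor gene Hand2 was lower, at 1.26, 1.46 and 1.39 CPM against 13.6, 6.24 and 15.1 CPM (adjusted p = 0.0116, and 0.0767 without replicate 3 of both groups).

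Macrophage and epithelial markers were low. Of 20 macrophage markers 8 were tested and 4 rose (2 without replicate 3 of both groups), the whole list adding up to 14.6, 6.92 and 23.1 CPM in MEF and 39.7, 56.8 and 67.7 CPM with F/R/C. The 4 that rose were Itgam, an integrin of myeloid cells (4.49, 4.19 and 2.64 CPM with F/R/C, at most 0.14 CPM in MEF), Fcer1g, an Fc receptor chain (4.41, 7.34 and 30.9 CPM), and the lysosomal proteins Laptm5 (11.4, 19 and 22.2 CPM) and Cd68 (6.21, 5.61 and 4.08 CPM). The call ended for Laptm5 without replicate 3 of both groups (adjusted p = 0.0637), and for Cd68 there (0.0528), without MEF replicate 2 (0.0518) and without MEF replicate 3 (0.0566). Of the 12 members too low to test, most had 0 or 1 counts in each F/R/C library. The exceptions were Cd3e (10, 9 and 7 counts, and 0 in every MEF library), C1qc (3, 0 and 0) and Lyz1 (0, 0 and 2). Ptprc, Adgre1, Tyrobp and C1qa, which also mark macrophages, had 3, 6, 7 and 7 counts in MEF replicate 1 and 0 or 1 in the other MEF and the F/R/C libraries. Of 20 epithelial markers 11 were tested and 4 rose. The whole list summed to only 26.3, 28.6 and 30.4 CPM with F/R/C, from 3.58 to 10 CPM in MEF. Of 16 glial markers 7 were tested and 4 rose. Among these was Erbb3, the neuregulin receptor that muscle also carries, at 124, 116 and 61.5 CPM with F/R/C and 0.093, 0.161 and 2.03 CPM in MEF. Cartilage and bone markers fell in 8 of 17 cases and rose in 2, the former being 2 without F/R/C replicate 2 or 3 and 3 without MEF replicate 1. Runx2, the regulator of bone formation, fell from 75.4, 54.7 and 36.5 to 18.7, 13.6 and 7.87 CPM (log2 fold change -2.05 ± 0.37, adjusted p = 0.00341). Endothelial markers summed to 28.2 to 85.9 CPM in MEF and 32 to 36.2 CPM with F/R/C, and neural markers to 81.6 to 470 CPM and 180 to 245 CPM. The part of any such cells in the results was not tested.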

How the data were processed

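RNA was measured in 9 libraries of poly(A) RNA: 3 of untreated Dmdmdx MEFs, 3 with MyoD and 3 with MyoD and F/R/C. The authors deposited estimated counts and TPM per Ensembl transcript. The submitters' processing notes name bcl2fastq 2.19, Trimmomatic 0.36, kallisto 0.44, edgeR 3.28 and the build GRCm38.p6, with no role or order. TPM values, as deposited, are scaled to transcript length. Estimated counts are pseudo-alignment estimates that share reads between similar transcripts, so near-identical genes are uncertain.

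Of 121843 transcripts, 121104 were matched to GENCODE release M21 and summed to 35675 genes; the others held 0.1996% to 0.4941% of counts. Sums were rounded. The tests were edgeR 4.0.16 quasi-likelihood F tests (R 4.3.3) in 1 fit over the 9 libraries, with TMM scaling, filterByExpr at a minimum count of 10 and minimum total of 15, and Benjamini-Hochberg adjustment over 15714 genes. Errors of log2 fold changes are the fold change divided by the root of F. An exact permutation test of 3 against 3 libraries cannot go below p = 0.1. The script was tested on simulated data. Depth of 21112071 to 24291056 counts sets a floor of 3 counts.

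Genes described were taken mainly from those that a rule gives, as far as they illustrate each group. These were Myod1, Myog, Pax7, Mef2c and Penk, and the 10 most abundant genes of each group by TPM. The rule also gave the 12 largest called rises and falls, and the 12 of each outside all lists. For these, the mean log2 CPM reached 3 and the groups did not overlap. From each list it gave up to 4 members in its main direction and 2 in the other. Predicted genes were left out of the largest changes. Outside this rule, members of gene families picked by hand were added, among them Rb1, Ccnd3, Mymk, Mymx, Meg3, Rian, Rtl1, Dio3 and Dlk1. Also outside it were Dhrs7c, Kcnj11 and Gprin3, from the genes near 0 in 1 group, and Pitx3, from the promoter search. The members and the 64 lists were chosen with earlier results of these data known. Labels give the groups the same replicate numbers. Deviations of same-numbered MEF and F/R/C libraries correlated at 0.142, 0.151 and 0.101, and those of unequal numbers at -0.134 to 0.00939, which passes the limit of 0.1 set for pairing; the labels state no pairing, the main fit has no block, and the blocked fit is given beside results it changes. Alternatives were DESeq2 1.42.0, other scalings and filters, counts scaled from TPM, a 2-group fit, the replicate block, and leaving out each library. Promoters came from RefSeq.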

Additional observations from a re-analysis of the deposited data

How the results depend on the processing

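The count of genes called kept within 1.5 times of 3067 higher and 2849 lower under every alternative but 1. Without replicate 3 of both groups 2073 genes were higher and 1877 lower; with fewer libraries in the fit the cause was not tested. Leaving out 1 library at a time gave 2168 to 2732 genes higher, the lowest without MEF replicate 2, and 2065 to 2670 lower, the lowest without F/R/C replicate 3. The fit with a replicate block called 3531 genes higher and 3344 lower. The selection rule and the added families give 424 called genes, of which the text describes a part. Of the 424, 5 lost the call with the block and 71 under at least 1 alternative. The log2 fold change moved by over 1.5 times for 35 genes when 1 library was left out, 30 of them without MEF replicate 3. DESeq2 called 3505 higher and 3202 lower. With total counts as the only scaling the median log2 fold change of all genes was -0.13 and 47.9% of calls were higher, and with DESeq2 size factors -0.01 and 53.8%, against -0.04 and 51.8%. Fitted fold changes of genes at 3 counts or fewer in every library of a group depend on the prior count, and none is printed for a single such gene.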

Other observations

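Genes of oxygen and nutrient sensing were not described above. Of 29 hypoxia genes, 7 rose and 1 fell, and 4 rose without MEF replicate 2. The shares were 24.1% and 3.45%, against 19.5% and 18.1% of all genes tested. Egln3, a prolyl hydroxylase that senses oxygen, was at 3.07, 1.93 and 6.55 CPM in MEF and 310, 297 and 230 CPM with F/R/C (edgeR log2 fold change 6.18 ± 0.59, adjusted p = 0.00036). Bnip3, a mitophagy receptor, rose from 52.9, 39.9 and 40.7 to 216, 247 and 234 CPM. Of 66 solute carriers, 11 rose (16.7%) and 15 fell (22.7%), shares near those of all genes tested. The number higher was 7 without MEF replicate 1 or 2 and 18 with the replicate block. Slc7a5, a transporter of large neutral amino acids in the list of tRNA synthetases and ATF4 targets, rose from 44.0, 30.8 and 72.4 to 383, 396 and 412 CPM (adjusted p = 0.0022). Slc12a4, a potassium-chloride cotransporter, fell from 221, 219 and 221 to 81.0, 72.2 and 72.8 CPM.

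Cholesterol and lipid genes fell in 20 of 49 cases and rose in 3; the number lower was 13 without F/R/C replicate 1 and 9 without replicate 3 of both groups. Srebf1, a regulator of lipid synthesis, fell from 183, 180 and 117 to 61.7, 54.7 and 34.5 CPM (adjusted p = 0.00253), and Dgat2, which makes triglyceride, rose from 7.67, 5.72 and 12.2 to 41.9, 47.2 and 53.6 CPM. Nuclear receptors fell in 9 of 37 cases, 5 without F/R/C replicate 3, and rose in 3, 5 with the block. Rarg, a retinoic acid receptor, fell from 162, 234 and 161 to 47.2, 40.3 and 32.2 CPM, while Rxrg, a partner receptor, rose from 0.14, 0.121 and 1.15 to 50.4, 70.5 and 88.7 CPM (7.21 ± 0.81, adjusted p = 0.000568). Fndc5, the precursor of irisin, rose from 4.37, 2.09 and 6.18 to 328, 326 and 409 CPM, and the guidance gene Sema4d from 1.21, 0.765 and 2.03 to 102, 114 and 122 CPM (adjusted p = 0.000227 and 0.000355).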
